A study of Mus musculus with 24 samples.

Results

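Macrophage-rich and macrophage-poor tumours were taken from 24 mouse tumours by a macrophage score, and their transcripts were compared. The score of a tumour was the mean over macrophage genes of its log2 signal after subtracting the average of that gene in all 24 tumours. The tumours were thus chosen by measured values of these genes. Of the 8 genes named for the score (Adgre1, Csf1r, Cd68, Cd163, Mrc1, C1qa, C1qb and C1qc), 7 were measured, since no probe set was assigned to Cd68 in the annotation used. The 8 tumours with the highest score are called macrophage-rich, the 8 with the lowest macrophage-poor, and the other 8 are called middle. All 24 tumours belong to a study of pancreatic ductal adenocarcinoma (PDAC) with 4 groups of 6: BMS754807, hydroxychloroquine, both agents together (the combination), and a control that the labels call vector treated. BMS754807 is a small molecule that blocks the kinases of the IGF1 and insulin receptors (IGF1R/IR), and hydroxychloroquine accumulates in lysosomes and hinders the breakdown of autophagic cargo. Values were deposited log2 signals of Clariom S arrays, with array medians between 6.79 and 7.03 at 1 array per tumour, which sets the precision. The labels used here give no mouse strain, age, tumour line, tumour site, dose or time. Nothing in the labels says that the samples came from separate animals, so each p measures the spread between these samples.

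Macrophages in a tumour descend from resident cells of the tissue and from blood monocytes that enter through the receptor Ccr2, and both depend on Csf1r, the receptor for CSF1 and IL-34. They take up debris and dying cells, digest them in lysosomes, make the C1q chains of complement and present peptides on MHC class II. In pancreatic cancer they lie in a stroma rich in fibroblasts and collagen, and they are a source of IGF1, a ligand of the receptor that BMS754807 blocks. Whole tumour tissue was measured here, so fewer macrophages and less RNA per macrophage cannot be told apart.

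The scores of the macrophage-rich tumours were 1.82 in BMS754807 tumour 6, 1.39 in control tumour 5, 1.01 in hydroxychloroquine tumour 4, 0.56 in BMS754807 tumour 5, 0.50 in control tumour 6, 0.38 in combination tumour 1, 0.37 in hydroxychloroquine tumour 2 and 0.30 in hydroxychloroquine tumour 5. Those of the macrophage-poor tumours were -0.45 in control tumour 2, -0.46 in combination tumour 4, -0.58 in BMS754807 tumour 4, -0.77 in combination tumour 3, -0.79 in BMS754807 tumour 3, -0.88 in combination tumour 6, -0.90 in hydroxychloroquine tumour 3 and -1.0 in combination tumour 2. Just outside the 2 limits lay control tumour 3 at 0.23 and hydroxychloroquine tumour 1 at -0.30. The step from the last rich tumour to the first middle one was therefore small, while the 3 highest tumours stood clear of the other rich ones. Every treatment group held tumours of each level. BMS754807 gave 2 rich, 2 middle and 2 poor tumours, hydroxychloroquine 3, 2 and 1, the combination 1, 1 and 4, and control 2, 3 and 1. Group means of the score were 0.15 ± 0.94 with BMS754807, 0.039 ± 0.66 with hydroxychloroquine, -0.44 ± 0.57 with the combination and 0.25 ± 0.65 in control (SD, n = 6 each), and the group ranges overlapped.

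**Figure D1:**
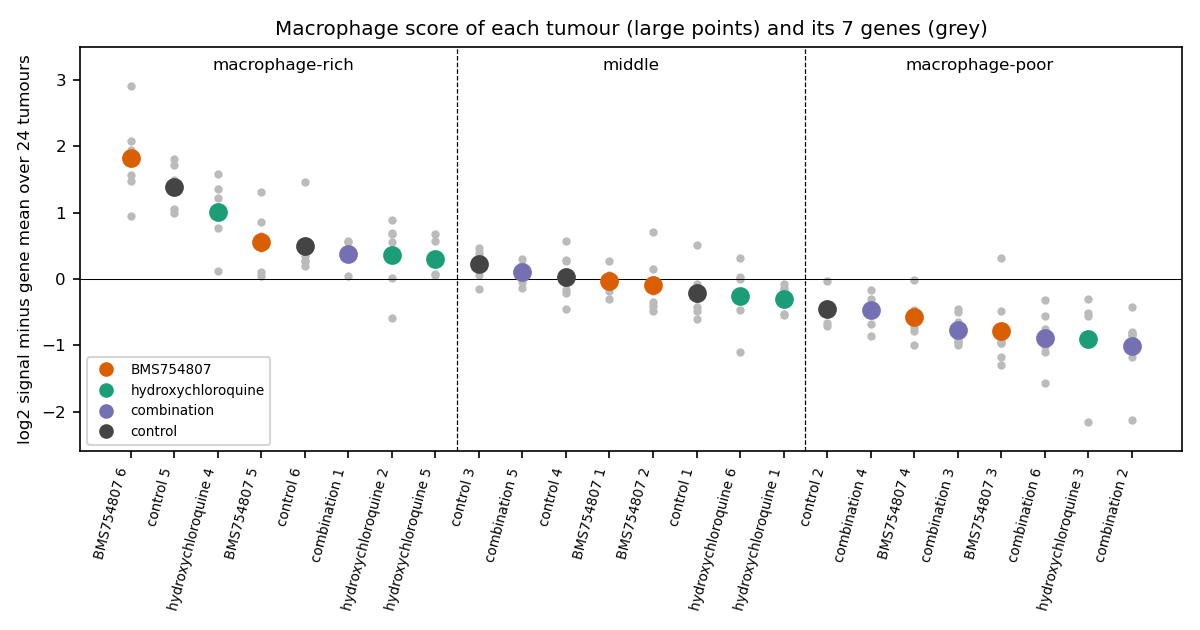
Macrophage score of the 24 tumours (large points, coloured by treatment group) and the 7 genes behind it (grey points), as log2 signal minus the gene's mean, ordered from the highest to the lowest score. The dashed lines part the 8 macrophage-rich tumours (0.30 to 1.82), the middle 8 and the 8 macrophage-poor tumours (-1.0 to -0.45), and each level holds tumours of all 4 groups.

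The genes that chose the tumours are given as a description only, and their values support nothing below. Csf1r had 11.01, 11.71 and 12.89 (lowest, median and highest log2 signal of 8 tumours, the form used for all genes below) in macrophage-rich tumours, against 9.76, 9.97 and 10.54 in macrophage-poor tumours. Adgre1, the F4/80 antigen of mouse macrophages, had 9.0, 9.53 and 10.88 in macrophage-rich tumours, against 7.83, 7.95 and 8.29 in macrophage-poor tumours. C1qa, a chain of the C1q complement component, had 11.54, 11.87 and 13.08 in macrophage-rich tumours, against 10.09, 10.57 and 10.97 in macrophage-poor tumours. These 3 defining macrophage markers thus did not overlap between the levels, nor did C1qb and C1qc. The scavenger receptor gene Cd163 and the mannose receptor gene Mrc1 did overlap, with mean differences of 1.91 and 0.95, the widest and the narrowest of the 7.

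Control tumour 5, BMS754807 tumour 6 and hydroxychloroquine tumour 4 stood apart from other tumours in earlier results of these data, and all are among the 8 macrophage-rich tumours. They had the highest macrophage scores of the 24, and also the highest scores for fibroblast and matrix genes (1.13, 1.30 and 1.40) and for endothelial markers (1.48, 1.47 and 1.00). Results are therefore also given from a fit without them, which holds 5 macrophage-rich and 8 macrophage-poor tumours.

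The comparison asks which genes differed between macrophage-rich and macrophage-poor tumours once treatment group was allowed for. Other macrophage genes were read from the same arrays as the score genes, so a higher level of such genes in macrophage-rich tumours is not evidence independent of how the tumours were chosen. Of 19498 genes tested with limma, 217 (1.11%) passed an adjusted p under 0.05, of which 172 (0.882%) were higher and 45 (0.231%) lower. Among the gene lists, 7 of 12 tissue-resident macrophage genes, 6 of 16 complement genes and 7 of 25 fibroblast and matrix genes rose in macrophage-rich tumours and 0 of each fell, while 5 of 21 epithelial and ductal genes fell and 0 rose. At an unadjusted p under 0.05 lay 3075 of the 19498 genes, the share beside which list counts at that cut are to be read. The median difference of all genes was -0.014 log2. All 8 macrophage-rich tumours lay above all 8 macrophage-poor tumours for 101 genes (0.518%) and below them for 26 (0.133%), and 73 of the 172 and 12 of the 45 were among these. Within the middle 8 tumours, which the fit did not use, the correlation of signal with score had the sign of the difference for 161 of the 217 genes and for 10088 of all 19498, given as a description. The count moved with the tumours in the fit and with what else was modelled. Leaving out 1 tumour at a time gave between 16 genes (without hydroxychloroquine tumour 3) and 446 (without control tumour 6). Hydroxychloroquine tumour 3 is the only macrophage-poor tumour of its group, so without it that group adds no comparison of the levels. The same holds for combination tumour 1, the only macrophage-rich tumour of its group, without which 173 genes passed. The cause of these changes in count was not tested. Without control tumour 5, BMS754807 tumour 6 and hydroxychloroquine tumour 4, 66 genes passed (0.338%), of which 60 were higher (0.308%) and 6 lower (0.0308%). Among these were 59 of the 217. All 217 kept their sign, but this fit reuses 13 of the tumours in which they were chosen. The kept signs are therefore a description and not a test. With the epithelial, the skeletal muscle or the fibroblast score as a covariate 0 genes passed in limma, with 1070, 2324 and 1427 at an unadjusted p under 0.05. The fibroblast covariate was chosen after seeing the data. The SD of an array's values over genes was 3.90 to 3.99 in macrophage-rich tumours and 3.96 to 4.00 in macrophage-poor tumours, and with it as a covariate 37 genes passed.

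**Figure D2:**
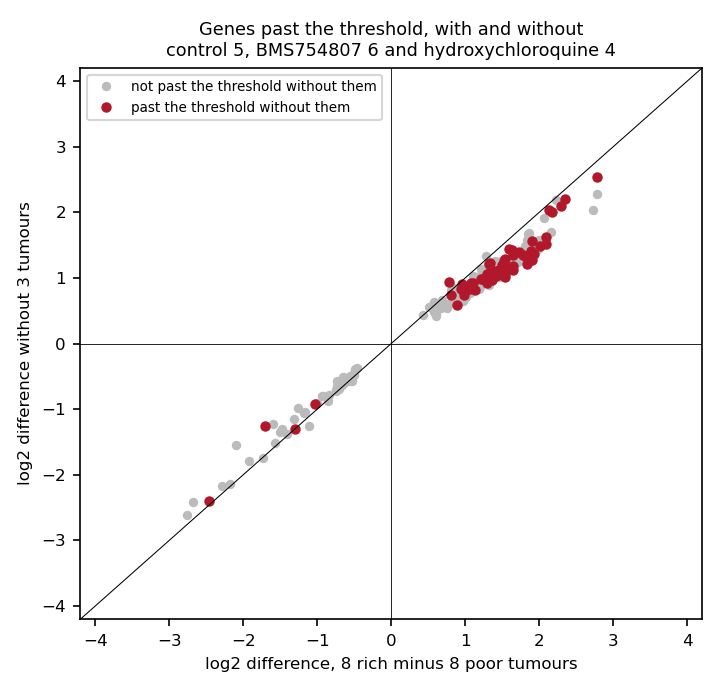
Log2 difference of the 217 genes past the threshold, with all 16 tumours (horizontal axis) and without control tumour 5, BMS754807 tumour 6 and hydroxychloroquine tumour 4 (vertical axis), with the line of equality. All 217 genes keep their sign, most points above 0 lie below the line, and the 59 genes in red passed an adjusted p under 0.05 in both fits. The fit on the vertical axis reuses tumours of the other fit, so the kept signs are a description.

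The 12 genes with the smallest p among those that rose, with predicted genes and some gene families passed over, held 5 that are known from macrophages of normal tissues or from their membranes. Cbr2, a carbonyl reductase expressed by resident macrophages of the mouse, had 9.04, 9.9 and 11.58 in macrophage-rich tumours, against 5.7, 7.2 and 8.42 in macrophage-poor tumours. Its levels did not overlap between the groups, and the difference of 2.78 ± 0.36 log2 (SE; 6.87-fold) had an adjusted p of 0.00775. Folr2, the folate receptor beta of tissue macrophages, had 7.6, 8.69 and 10.21 in macrophage-rich tumours, against 6.53, 7.02 and 7.59 in macrophage-poor tumours, again without overlap. It rose by 1.9 ± 0.26, with an adjusted p of 0.0102. Fcna, which encodes ficolin A, a lectin that starts the lectin pathway of complement, had 6.28, 7.54 and 8.3 in macrophage-rich tumours, against 5.06, 6.55 and 7.02 in macrophage-poor tumours. Its ranges overlapped and its means were 7.23 and 6.33, while the difference with treatment group in the model was 1.33 ± 0.17 (adjusted p 0.00775). Ms4a7, a membrane protein of the tetraspan type, rose by 1.5 ± 0.22 and Ly86, the secreted partner of the RP105 receptor, by 1.21 ± 0.18, both without overlap. Without the 3 tumours named above, Cbr2 stood at 2.54, Folr2 at 1.57, Fcna at 1.22 and Ms4a7 at 1.19, all still past the threshold, while Ly86 stood at 1.14 with an adjusted p of 0.0528.

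The other 7 leading genes that rose were Unc93b1, Pltp, Ccl8, Lrrc17, Adam23, Entpd1 and Abca9. Unc93b1, the carrier that brings nucleic acid sensing Toll-like receptors to endosomes, had 9.74, 10.44 and 10.96 in macrophage-rich tumours, against 8.07, 8.87 and 9.19 in macrophage-poor tumours. It did not overlap between the levels, with a difference of 1.63 ± 0.2 and an adjusted p of 0.00775. Pltp, the phospholipid transfer protein of plasma, had 10.89, 11.44 and 12.98 in macrophage-rich tumours, against 8.57, 9.49 and 10.1 in macrophage-poor tumours, also without overlap (2.29 ± 0.29, 4.9-fold, adjusted p 0.00775). Ccl8, a chemokine for monocytes and other leukocytes, had 10.19, 10.86 and 11.93 in macrophage-rich tumours, against 7.67, 8.95 and 9.83 in macrophage-poor tumours (2.17 ± 0.3, adjusted p 0.0102). Entpd1, the ectonucleotidase CD39 that breaks down extracellular ATP, had 10.78, 11.22 and 11.98 in macrophage-rich tumours, against 9.73, 9.95 and 10.42 in macrophage-poor tumours (1.29 ± 0.19, adjusted p 0.0118). The 3 remaining genes, none of which is a macrophage marker by the lists used here, rose by 1.54 ± 0.22 (Lrrc17, a secreted leucine-rich repeat protein), 1.32 ± 0.19 (Adam23, a membrane disintegrin) and 1.59 ± 0.23 (Abca9, an ABC transporter). All 7 kept all macrophage-rich above all macrophage-poor tumours, and all 7 passed without the 3 tumours, at 1.06 (Entpd1) to 2.10 (Pltp).

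**Figure D3:**
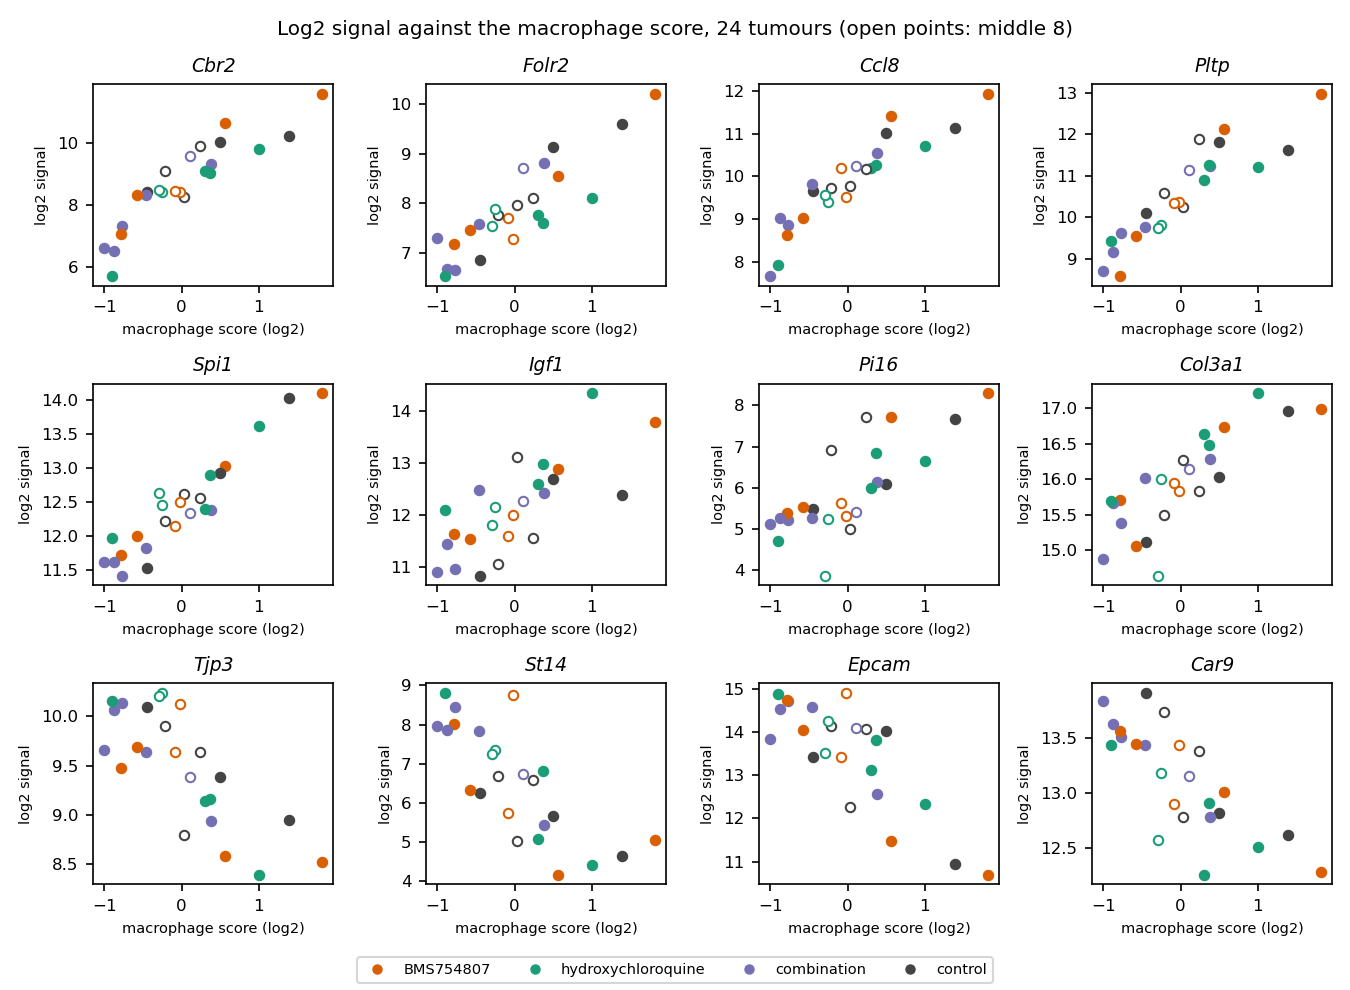
Log2 signal of 12 genes (vertical axes) against the macrophage score (horizontal axes) in 24 tumours, coloured by treatment group, with the middle 8 as open points. Cbr2, Folr2, Ccl8, Pltp and Spi1 climb with the score through the middle tumours, Igf1, Pi16 and Col3a1 climb with more spread, and Tjp3, St14, Epcam and Car9 fall.

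To show where the myeloid transcription factor PU.1, which Spi1 encodes, could bind near such genes, promoters were searched for GAGGAA, the core of its recognition site, and for the longer GAGGAAGT, which contains it, on both strands. Shown are the 250 bases before the start of the first 4 leading genes that rose and have exactly 1 promoter window, from RefSeq on GRCm38.p6, read 5′ to 3′ along the gene, with GAGGAA and its reverse complement in capitals. They lie at chr2:164857709-164857958 (Pltp, minus strand), chr2:25627975-25628224 (Fcna, minus strand), chr11:120732022-120732271 (Cbr2, minus strand) and chr11:82114935-82115184 (Ccl8, plus strand).
Pltp: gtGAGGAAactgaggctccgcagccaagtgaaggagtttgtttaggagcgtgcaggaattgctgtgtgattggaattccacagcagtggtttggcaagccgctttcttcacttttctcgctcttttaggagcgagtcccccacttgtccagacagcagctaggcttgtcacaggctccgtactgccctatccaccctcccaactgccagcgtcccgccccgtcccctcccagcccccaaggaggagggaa
Fcna: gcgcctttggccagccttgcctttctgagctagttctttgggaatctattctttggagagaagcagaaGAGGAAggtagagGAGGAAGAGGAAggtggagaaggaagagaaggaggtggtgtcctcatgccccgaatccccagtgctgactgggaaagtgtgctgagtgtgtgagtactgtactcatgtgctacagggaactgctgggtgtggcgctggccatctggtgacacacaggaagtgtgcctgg
Cbr2: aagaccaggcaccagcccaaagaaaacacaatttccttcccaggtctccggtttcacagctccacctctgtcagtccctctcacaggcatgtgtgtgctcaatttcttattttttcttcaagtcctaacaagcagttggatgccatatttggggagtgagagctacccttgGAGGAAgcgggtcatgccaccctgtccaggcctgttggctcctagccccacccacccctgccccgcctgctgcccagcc
Ccl8: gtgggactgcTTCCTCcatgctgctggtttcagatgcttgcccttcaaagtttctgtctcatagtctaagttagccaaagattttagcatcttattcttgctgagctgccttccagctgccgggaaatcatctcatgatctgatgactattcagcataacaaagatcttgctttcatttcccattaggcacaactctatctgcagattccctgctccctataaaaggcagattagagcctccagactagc
Each of the 4 held GAGGAA, with 3 copies in Fcna and 1 copy in each of the others, and in Ccl8 the motif lay on the opposite strand. Of the 11 leading genes that rose and have a window 7 held GAGGAA and 0 held GAGGAAGT, and Folr2, Lrrc17, Adam23 and Ly86 held neither. Over windows of 300 bases (250 before to 50 after the start), GAGGAA was found in 60 of the 135 genes that rose and have a window (44.4%), in 7 of the 28 that fell (25.0%) and in 4751 of all 15687 tested genes with one (30.3%). GAGGAAGT was found in 16 of 135 (11.9%), 0 of 28 and 553 of 15687 (3.53%). A motif of interferon response elements was found in 9 of 135 (6.67%), 1 of 28 (3.57%) and 618 of 15687 (3.94%), and CACGTG, the E-box, in 6 of 135 (4.44%), 5 of 28 (17.9%) and 1453 of 15687 (9.26%). A match is a run of letters and no measure of binding, and genes with several windows were counted once if any held the motif.

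Of 23 measured macrophage surface genes, 7 rose and 0 fell, with a median difference of 1.07. By sign 22 lay above 0 and 1 below, Cd14 (-0.36 ± 0.14, adjusted p 0.226). Sirpa, the receptor that reads CD47 on other cells, had 12.4, 13.06 and 14.01 in macrophage-rich tumours, against 11.3, 11.83 and 11.99 in macrophage-poor tumours, without overlap (1.41 ± 0.28, adjusted p 0.0309). Aif1, the actin-binding protein IBA1, rose by 1.4 ± 0.27, Cd84, an adhesion receptor of leukocytes, by 1.1 ± 0.2, Pirb, an inhibitory receptor for MHC class I, by 1.51 ± 0.34, and Mpeg1, perforin-2, by 1.07 ± 0.23. Cx3cr1, the fractalkine receptor, did not pass at 0.52 ± 0.25 (adjusted p 0.327). Without the 3 tumours 2 of the 23 genes passed, with a median of 0.69. Spi1, which encodes PU.1, the factor needed for macrophage development, had 12.38, 12.98 and 14.1 in macrophage-rich tumours, against 11.41, 11.67 and 12 in macrophage-poor tumours. It rose by 1.36 ± 0.26 without overlap (adjusted p 0.0274) and was the one gene of 13 myeloid transcription factors to pass, in both fits. Of these 13 genes 9 lay above 0 and 4 below (Cebpb, Pparg, Runx1 and Bcl6), with a median of 0.30. Maf, a factor of resident macrophages, stood at 0.65 ± 0.19 (adjusted p 0.112).

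Among 12 Fc receptor and ITAM adaptor genes, 5 rose and 0 fell (median 1.01), and the count was also 5 without the 3 tumours. Fcer1g, the signalling chain shared by Fc receptors, had 9.41, 10.38 and 12.27 in macrophage-rich tumours, against 8.3, 8.9 and 9.11 in macrophage-poor tumours (1.84 ± 0.39, adjusted p 0.0402). Fcgr1, the high affinity receptor for IgG, rose by 1.6 ± 0.3, Fcgr3 by 1.29 ± 0.25 and Vav1, an exchange factor downstream of such receptors, by 1.05 ± 0.19. The inhibitory receptor Fcgr2b rose as well, by 1.28 ± 0.21. Of 5 NADPH oxidase genes 0 passed in limma (5 at an unadjusted p under 0.05), with a median of 0.98. Cybb, the catalytic subunit of the phagocyte oxidase, stood at 1.18 ± 0.31 (adjusted p 0.0757).

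The list of Toll-like receptors and inflammasome genes gave 5 of 18 that rose and 0 that fell (median 0.67). These were Unc93b1 and 4 of the 10 receptors, 3 of the endosome and 1 of the surface. Tlr7, a sensor of single-stranded RNA, had 7.38, 8.69 and 9.93 in macrophage-rich tumours, against 6.48, 6.71 and 7.84 in macrophage-poor tumours (1.97 ± 0.38, adjusted p 0.0285). Tlr13, which reads bacterial ribosomal RNA in the mouse, rose by 1.5 ± 0.3, Tlr8 by 0.82 ± 0.18 and the surface receptor Tlr1 by 1.37 ± 0.27. Tlr7 and Tlr1 overlapped between the levels, and Tlr13 and Tlr8 did not. Unc93b1 and Tlr13 passed without the 3 tumours, and Tlr7, Tlr8 and Tlr1 had adjusted p of 0.055, 0.0998 and 0.122.

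Complement genes gave 6 of 16 that rose and 0 that fell, with a median of 1.21 over a list that leaves out C1q. The proteases of the C1 complex were among them, with C1s1 at 10.02, 10.86 and 12.01 in macrophage-rich tumours, against 8.29, 8.96 and 10.37 in macrophage-poor tumours (1.86 ± 0.35, adjusted p 0.0274) and C1ra higher by 1.52 ± 0.32. Serping1, the inhibitor of that complex, rose by 1.45 ± 0.33. C3ar1, the receptor for the C3a fragment, rose by 1.53 ± 0.32, Cfp, properdin of the alternative pathway, by 1.53 ± 0.33, and Vsig4, a receptor that binds C3 fragments, by 1.34 ± 0.27. The other 10 members did not pass, among them proteases, inhibitors and receptors of the same system. Without the 3 tumours 0 of the 16 passed in limma (12 at an unadjusted p under 0.05), with a median of 0.96 and adjusted p from 0.0532 (Cfp) to 0.176 (C1ra) for these 6. C1ra and C1s1 have close copies in the mouse genome, and whether their probes also read those was not tested.

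Tissue-resident macrophage genes gave the highest median of the macrophage lists, 1.38, with 7 of 12 that rose and 0 that fell, and 4 of 12 without the 3 tumours (median 1.20). Besides Cbr2, Folr2, Fcna and Vsig4, these were Cd209f, F13a1 and Igf1. Cd209f, a C-type lectin of the DC-SIGN family, had 7.26, 8.44 and 11.35 in macrophage-rich tumours, against 5.14, 6.53 and 8.35 in macrophage-poor tumours (2.35 ± 0.36, adjusted p 0.0131). F13a1, the A chain of coagulation factor XIII, rose by 1.82 ± 0.39 (adjusted p 0.0402). Lyve1, a hyaluronan receptor found on resident macrophages and lymphatic vessels, had 8.56, 10.1 and 12.46 in macrophage-rich tumours, against 7.8, 8.58 and 9.99 in macrophage-poor tumours and did not pass (1.53 ± 0.43, adjusted p 0.0957). Of 11 monocyte genes 2 rose and 0 fell (median 0.47). Ccr2, the receptor by which monocytes enter tissue, had 8.14, 8.97 and 10.01 in macrophage-rich tumours, against 6.64, 7.78 and 8.18 in macrophage-poor tumours (1.44 ± 0.29, adjusted p 0.0316), and Vcan, the proteoglycan versican, rose by 0.58 ± 0.12. Ly6c2, a surface marker of inflammatory monocytes, stood at 1.45 ± 0.44 (adjusted p 0.121). Neither Ccr2 nor Vcan passed without the 3 tumours, with adjusted p of 0.102 and 0.19. The tumours were chosen by macrophage genes, Cd163 and Mrc1 among them, so the order of the macrophage lists is not independent of that choice.

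Genes of lipid-associated macrophages had a median of 0.98 over 11 members, of which 1 rose and 0 fell. That gene was Apoe, the apolipoprotein by which macrophages export cholesterol, with 16.32, 16.44 and 17.25 in macrophage-rich tumours, against 14.96, 15.66 and 15.98 in macrophage-poor tumours (0.98 ± 0.2, adjusted p 0.035). It stood at 0.78 without the 3 tumours and did not pass (adjusted p 0.121). Trem2, the lipid receptor that gives this macrophage state its other name, had 7.89, 8.38 and 9.66 in macrophage-rich tumours, against 7.06, 7.46 and 8.15 in macrophage-poor tumours, with overlap, and did not pass (1.12 ± 0.32, adjusted p 0.0991). Fabp5, a carrier of fatty acids, did not overlap between the levels and did not pass (1.43 ± 0.38, adjusted p 0.0794). Of the 11 members 8 lay above 0 and 3 below, Cd9 (-0.27 ± 0.12), Lgals3 (-0.21 ± 0.20) and Mmp12 (-0.47 ± 0.33). Of 20 phagolysosome genes 4 rose and 0 fell, with a lower median of 0.37. Lyz2, the lysozyme of macrophages and neutrophils, had 14.22, 14.66 and 16.33 in macrophage-rich tumours, against 12.97, 13.58 and 13.86 in macrophage-poor tumours (1.54 ± 0.33, adjusted p 0.0403). Laptm5, a lysosomal membrane protein of blood cells, rose by 1.25 ± 0.24, and the cathepsin gene Ctss and the legumain gene Lgmn rose by 0.93 ± 0.19 and 0.88 ± 0.18. Of these Lyz2 alone passed without the 3 tumours. Efferocytosis, the uptake of dying cells, gave 1 of 14 genes (median 0.60), Pros1, a ligand that bridges dying cells to the receptors Tyro3 and Mertk, at 0.94 ± 0.19 (adjusted p 0.0812 without the 3 tumours). Gas6, the other such ligand, stood at 1.18 ± 0.39 (adjusted p 0.15).

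Few activation genes passed. Of 14 inflammatory activation genes 0 rose and 1 fell (median 0.14). The gene that fell was Il1a, the alarmin interleukin 1 alpha, with 5.26, 6.01 and 6.39 in macrophage-rich tumours, against 6.06, 7.34 and 8.22 in macrophage-poor tumours (-1.11 ± 0.24, adjusted p 0.0427), and its adjusted p was 0.0838 without the 3 tumours. Tnf stood at -1.04 ± 0.32 (adjusted p 0.132), Nos2, the inducible nitric oxide synthase, at 0.9 ± 0.58 (adjusted p 0.48), and Cd86, a costimulatory ligand, at 0.72 ± 0.21 (adjusted p 0.112). Of 14 alternative activation genes 2 rose and 0 fell (median 0.32). These were Hpgds, which makes prostaglandin D2 (0.95 ± 0.19), and Cd200r1, an inhibitory receptor (1.4 ± 0.29), of which Hpgds also passed without the 3 tumours and Cd200r1 did not (adjusted p 0.122). Arg1, arginase 1, had 8.8, 9.75 and 13.13 in macrophage-rich tumours, against 8.63, 9.33 and 10.57 in macrophage-poor tumours and did not pass (0.9 ± 0.63, adjusted p 0.524). Its lowest macrophage-rich tumour lay below the macrophage-poor median. Iron and haem genes gave 1 of 11 (median 0.16), biliverdin reductase Blvra at 0.51 ± 0.12 (adjusted p 0.128 without the 3 tumours), while the haem oxygenase gene Hmox1 stood at 1.8 ± 0.6 (adjusted p 0.159) and the transferrin receptor gene Tfrc at -0.76 ± 0.21 (adjusted p 0.0913).

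**Figure D4:**
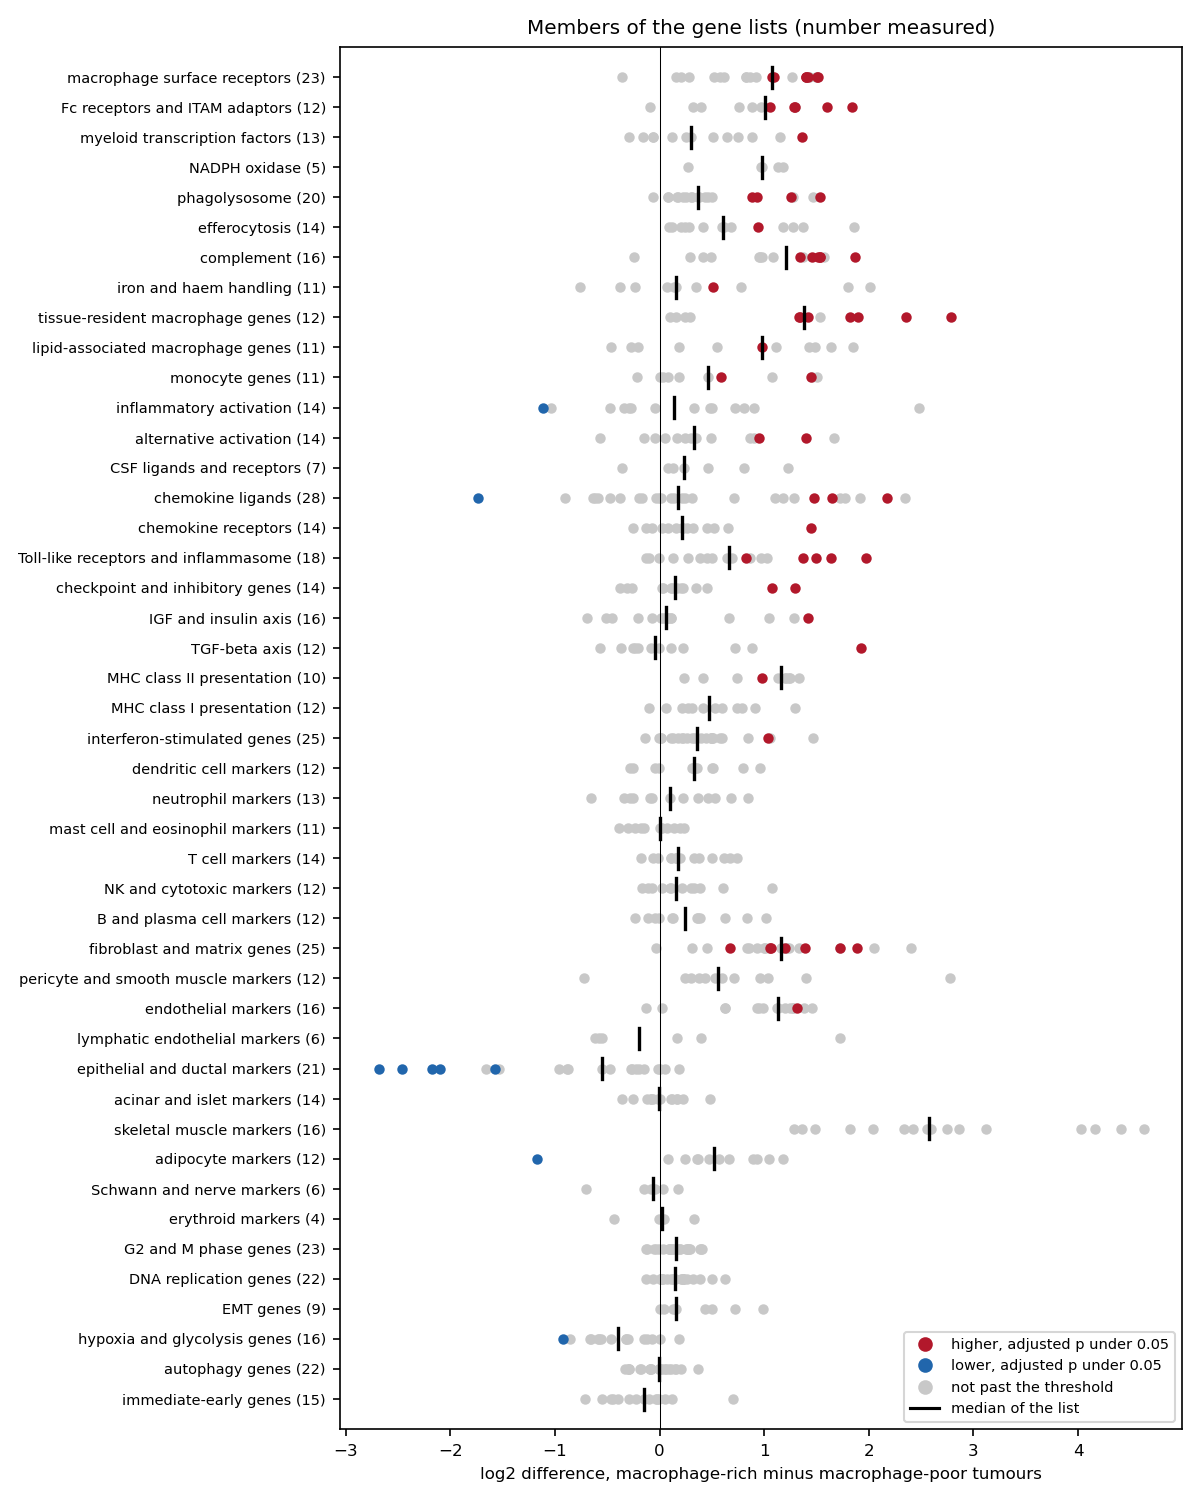
Log2 difference, macrophage-rich minus macrophage-poor tumours, of each measured member of the gene lists (number measured in brackets), with list medians as black bars. Red points (higher) and blue points (lower) passed an adjusted p under 0.05. Red are 6 of the 16 complement and 7 of the 25 fibroblast genes, blue are 5 of the 21 epithelial genes, and the skeletal muscle list has the highest median (2.58) with 0 members past the threshold.

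The ligands that maintain and draw macrophages were looked at next. Csf1, the main growth factor of macrophages, had 11.62, 11.94 and 13.66 in macrophage-rich tumours, against 10.78, 11.19 and 11.48 in macrophage-poor tumours. All 8 macrophage-rich tumours lay above all 8 macrophage-poor tumours, yet the gene did not pass with 16 tumours (1.22 ± 0.32, adjusted p 0.0781). Without the 3 tumours it stood at 0.72 and passed (adjusted p 0.0439). Il34, the second ligand of Csf1r, did not pass and had the opposite sign (-0.36 ± 0.2, adjusted p 0.412). Of 7 genes for CSF ligands and receptors other than Csf1r 0 passed in limma with 16 tumours, with 2 at an unadjusted p under 0.05 (median 0.23). Among 28 chemokine ligands 3 rose and 1 fell (median 0.17). Besides Ccl8, these were Ccl6, with 10.47, 11.38 and 13.29 in macrophage-rich tumours, against 9.27, 10.04 and 10.5 in macrophage-poor tumours (1.64 ± 0.33, adjusted p 0.0339), and Ccl11, eotaxin, which rose by 1.48 ± 0.32. Cxcl5, a neutrophil attractant made by epithelium, had 8.36, 9.61 and 10.62 in macrophage-rich tumours, against 9.98, 11.03 and 12.51 in macrophage-poor tumours and fell (-1.74 ± 0.36, adjusted p 0.0353). In the fit without the 3 tumours Ccl8 and Ccl6 passed, and Ccl11 and Cxcl5 did not, with adjusted p of 0.202 and 0.116. Ccl2, the ligand of Ccr2, had 7.15, 7.64 and 10.89 in macrophage-rich tumours, against 6.82, 7.49 and 7.8 in macrophage-poor tumours and did not pass (1.1 ± 0.58, adjusted p 0.38). Its medians were close and a few macrophage-rich tumours were high, so that without the 3 tumours the difference was 0.14. Of 14 chemokine receptor genes 1, Ccr2, rose and 0 fell (median 0.21).

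The IGF and insulin genes bear on the target of BMS754807. Of 16 measured members 1 rose and 0 fell, with a median of 0.065. The gene that rose was Igf1, a ligand made by macrophages and fibroblasts as well as liver, with 12.38, 12.79 and 14.34 in macrophage-rich tumours, against 10.84, 11.5 and 12.49 in macrophage-poor tumours (1.42 ± 0.31, 2.67-fold, adjusted p 0.042). The difference was 1.74 among BMS754807 tumours, 1.21 among hydroxychloroquine tumours, 0.97 among combination tumours and 1.70 among control tumours. It was 1.15 without the 3 tumours, where the adjusted p was 0.128. Igf2, the second ligand, stood at 0.66 ± 0.26 (adjusted p 0.231). Neither receptor passed, as Igf1r had 11.47, 11.53 and 11.65 in macrophage-rich tumours, against 11.26, 11.81 and 12.08 in macrophage-poor tumours (-0.2 ± 0.13, adjusted p 0.489) and Insr stood at 0.062 ± 0.11 (adjusted p 0.837). In the TGF-beta list 1 of 12 rose and 0 fell (median -0.047). It was the coreceptor Tgfbr3, betaglycan, with 8.63, 9.28 and 11.31 in macrophage-rich tumours, against 7.14, 7.47 and 8.39 in macrophage-poor tumours (1.93 ± 0.39, adjusted p 0.0341).

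Checkpoint and inhibitory genes gave 2 of 14 that rose and 0 that fell (median 0.15), both also without the 3 tumours. Beside Entpd1 this was Vsir, the inhibitory ligand VISTA of myeloid cells, with 9.26, 9.61 and 10.28 in macrophage-rich tumours, against 8.35, 8.46 and 8.97 in macrophage-poor tumours (1.07 ± 0.18, adjusted p 0.022). Cd274, the ligand PD-L1, had 6.52, 7.19 and 8.37 in macrophage-rich tumours, against 6.81, 7.24 and 7.58 in macrophage-poor tumours and did not pass (0.11 ± 0.26, adjusted p 0.887). MHC class II genes had a median of 1.16 with 10 of 10 above 0, but 1 passed. This was Ifi30, the lysosomal thiol reductase that unfolds antigens, with 12.69, 13.1 and 14 in macrophage-rich tumours, against 11.96, 12.19 and 12.44 in macrophage-poor tumours (0.98 ± 0.18, adjusted p 0.0274). H2-DMa, a chain of the class II peptide loader, missed the threshold at 1.2 ± 0.27 (adjusted p 0.0511), and H2-Eb1, a chain of the class II molecule itself, had 10.17, 11.2 and 12.32 in macrophage-rich tumours, against 8.63, 10.21 and 11.25 in macrophage-poor tumours (1.21 ± 0.39, adjusted p 0.146). Of 12 MHC class I genes 0 passed in limma (unadjusted p under 0.05 for 4; median 0.47), with Psmb8 of the immunoproteasome at 1.29 ± 0.4 (adjusted p 0.132). Interferon-stimulated genes gave 1 of 25 (median 0.35), the antiviral Oas1a at 1.03 ± 0.19 (adjusted p 0.0274, and 0.102 without the 3 tumours), and Oas2 stood at 1.47 ± 0.39 (adjusted p 0.081).

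Genes of the stroma were read from the same whole tumours. Of 25 fibroblast and matrix genes 7 rose and 0 fell, with a median of 1.16. Pi16, a marker of fibroblasts of the adventitia, had 6, 6.75 and 8.3 in macrophage-rich tumours, against 4.71, 5.28 and 5.53 in macrophage-poor tumours, without overlap (1.72 ± 0.27, adjusted p 0.0151). Col3a1, a chain of fibrillar collagen, had 16.03, 16.68 and 17.21 in macrophage-rich tumours, against 14.87, 15.53 and 16.01 in macrophage-poor tumours, also without overlap (1.19 ± 0.22, adjusted p 0.0274). Col1a1 and Col1a2 of type I collagen rose by 1.05 ± 0.22 and 1.07 ± 0.21, the proteoglycan gene Dcn by 1.39 ± 0.3, the microfibril gene Mfap5 by 1.88 ± 0.39 and Sparc, a matrix-binding glycoprotein, by 0.67 ± 0.14. Pi16 and Mfap5 also passed without the 3 tumours, where the median of the list was 0.79. Of the 8 macrophage-rich tumours 7 were among the 8 with the highest fibroblast score and 0 among the 8 with the lowest, and of the 8 macrophage-poor tumours 5 were among the lowest. Endothelial markers had a median of 1.13 over 16 genes, with 1 that rose and 0 that fell. This was Eng, the TGF-beta coreceptor endoglin (1.32 ± 0.29, adjusted p 0.0471, and 0.116 without the 3 tumours), and Kdr, the VEGF receptor, stood at 1.27 ± 0.34 (adjusted p 0.0826). Of 12 pericyte and smooth muscle genes 0 passed in limma (unadjusted p under 0.05 for 6; median 0.56), with Rgs5, a pericyte marker, at 1.4 ± 0.32 (adjusted p 0.0511). The part of fibroblasts and vessels in the macrophage results was not tested beyond the covariate given above.

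The epithelial list covers the tumour cells and normal ducts. Of 21 epithelial and ductal markers 0 rose and 5 fell, with a median of -0.55. St14, the membrane protease matriptase, had 4.15, 5.08 and 6.81 in macrophage-rich tumours, against 6.25, 7.92 and 8.82 in macrophage-poor tumours (-2.46 ± 0.41, adjusted p 0.0211). Epcam, the epithelial adhesion molecule, had 10.68, 12.45 and 14.03 in macrophage-rich tumours, against 13.42, 14.56 and 14.89 in macrophage-poor tumours (-2.1 ± 0.46, adjusted p 0.042). The claudin genes Cldn3 and Cldn4 of tight junctions stood at -1.57 ± 0.29 and -2.18 ± 0.41, and the splicing regulator Esrp1 at -2.69 ± 0.6, the widest difference of the list. The other 16 members, keratins and E-cadherin among them, did not pass, and 3 of the 21 lay above 0, by at most 0.19. The keratin genes Krt8, Krt18 and Krt19 stood at -0.016 ± 0.093, 0.0038 ± 0.096 and 0.049 ± 0.11. Krt7 stood at -0.28 ± 0.11 and Krt20 at -0.96 ± 0.48. Without the 3 tumours St14 alone passed (-2.39, adjusted p 0.0439). Of the 8 macrophage-rich tumours 6 were among the 8 with the lowest epithelial score and 0 among the 8 with the highest, and of the 8 macrophage-poor tumours 6 were among the highest.

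The 12 genes that fell with the smallest p, chosen in the same way, had varied roles. Tjp3, the tight junction protein ZO-3, had 8.39, 8.95 and 9.39 in macrophage-rich tumours, against 9.48, 9.88 and 10.15 in macrophage-poor tumours, without overlap (-1.04 ± 0.15, adjusted p 0.0118), and passed without the 3 tumours at -0.92. Mapk13, the kinase p38 delta, had 3.39, 4.28 and 5.57 in macrophage-rich tumours, against 5.13, 6.15 and 7.61 in macrophage-poor tumours, with overlap (-1.93 ± 0.29, adjusted p 0.0127). Its mean over 24 tumours, 5.43, lay below the median gene signal of 7.20. So did the means of St14 (6.54), Map7 (6.44) and Vsig4 (5.11), among others, and how near these lie to background was not tested. Car9, the carbonic anhydrase that HIF induces in hypoxia, had 12.25, 12.7 and 13.01 in macrophage-rich tumours, against 13.43, 13.54 and 13.91 in macrophage-poor tumours, without overlap (-0.92 ± 0.14, adjusted p 0.0151). Slc4a4, a cotransporter of sodium and bicarbonate, fell without overlap (-0.85 ± 0.14), as did Dennd1b, an exchange factor of membrane traffic (-0.62 ± 0.11). With overlap, Rab11fip1 of recycling endosomes stood at -0.75 ± 0.12, the microtubule protein gene Map7 at -1.3 ± 0.22, S100a14 at -2.29 ± 0.42, Fam210b at -0.63 ± 0.12 and the zinc finger gene Zfp704 at -0.65 ± 0.12. Together with St14 and Cldn3 these make up the 12. Of these Tjp3, Map7 and St14 passed without the 3 tumours, and the other 9 did not, with adjusted p from 0.0526 (Car9) to 0.104 (S100a14). With all 16 tumours Car9 was the one gene of 16 in the hypoxia and glycolysis list to pass, although 14 of the 16 lay below 0 (median -0.39). Egln3, a HIF target that hydroxylates HIF, stood at -0.86 ± 0.21 (adjusted p 0.0612) and the glucose transporter gene Slc2a1 at -0.67 ± 0.18 (adjusted p 0.081).

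**Figure D5:**
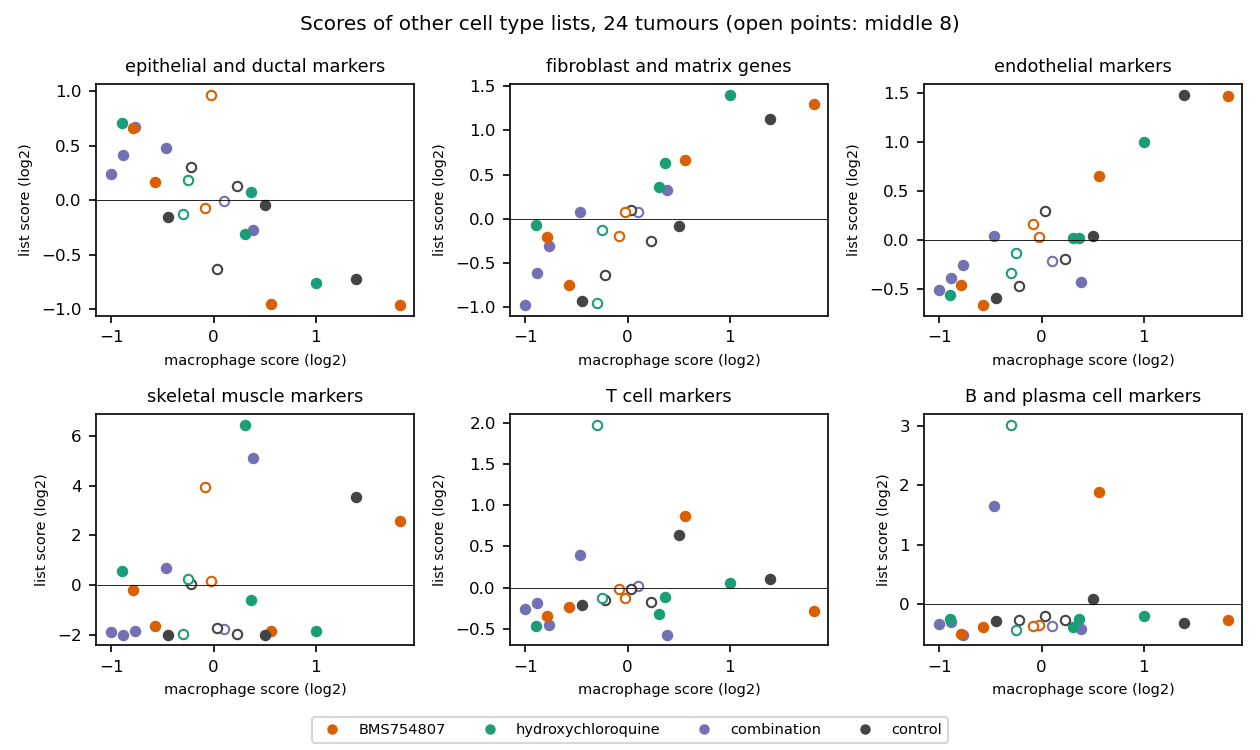
Scores of 6 marker lists (mean log2 signal minus gene mean, vertical axes) against the macrophage score (horizontal axes) in 24 tumours, coloured by treatment group, with the middle 8 as open points. Fibroblast and endothelial scores climb with the macrophage score and epithelial scores fall, while skeletal muscle (-2.01 to 6.45), T cell and B cell scores are carried by a few tumours.

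Lists of other cell types held 1 gene or none past the threshold. Skeletal muscle markers had the highest median of all lists, 2.58, and 0 of 16 passed in limma (unadjusted p under 0.05 for 4). Acta1, the actin of skeletal muscle, had 4.73, 10.94 and 16.36 in macrophage-rich tumours, against 4.64, 5.39 and 9.94 in macrophage-poor tumours (4.41 ± 2.01, adjusted p 0.302). Muscle scores ran from -2.01 to 6.45 in macrophage-rich tumours and from -2.0 to 0.69 in macrophage-poor tumours, and 4 of the 8 macrophage-rich tumours stood between 2.58 and 6.45. Of 12 adipocyte markers 0 rose and 1 fell, Cidea (5.8, 6.57 and 8 in macrophage-rich tumours, against 7.67, 7.93 and 8.28 in macrophage-poor tumours; -1.17 ± 0.22, adjusted p 0.0274), a lipid droplet protein, with an adjusted p of 0.0849 without the 3 tumours. The other 11 lay above 0, with a list median of 0.52. The lists for T cells (14 genes, median 0.18), NK cells (12, 0.16), B and plasma cells (12, 0.24), dendritic cells (12, 0.33), neutrophils (13, 0.10), mast cells and eosinophils (11, 0.0020), lymphatic endothelium (6, -0.19), acinar and islet cells (14, -0.0049), Schwann cells (6, -0.066) and erythroid cells (4, 0.018) had 0 members past the threshold in limma. At an unadjusted p under 0.05 were 3 dendritic cell, 2 NK cell, 2 neutrophil, 1 lymphatic, 1 Schwann cell and 1 erythroid gene of these and 0 of the T cell, B and plasma cell, mast cell and acinar lists. Over all tested genes 3075 of 19498 lay under that cut. T cell scores ran from -0.57 to 0.86 in macrophage-rich tumours and from -0.46 to 0.40 in macrophage-poor tumours. Neutrophil scores ran from -0.55 to 0.88 in macrophage-rich tumours and from -0.36 to 0.26 in macrophage-poor tumours. Whether muscle or lymphoid tissue in a few tumours had a part in the results was not tested beyond the muscle covariate given above.

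Cell cycle genes were also compared. Of 23 G2 and M phase genes and 22 DNA replication genes 0 passed in limma, with 0 and 3 at an unadjusted p under 0.05 and medians of 0.16 and 0.15. Mki67, a marker of cycling cells, had 14.41, 15.33 and 15.39 in macrophage-rich tumours, against 14.65, 15.27 and 15.5 in macrophage-poor tumours (-0.0074 ± 0.17, adjusted p 0.988), and Ccne1, the cyclin of S phase entry, stood at 0.62 ± 0.17 (adjusted p 0.0957). The lists for EMT (9 genes, median 0.16), autophagy (22, -0.0085) and immediate-early genes (15, -0.15) also had 0 members past the threshold, and 4, 3 and 4 at an unadjusted p under 0.05. Over all tested genes 3075 of 19498 lay under that cut. The members with the smallest p of the autophagy and immediate-early lists were Gabarapl1 at -0.33 ± 0.14 (adjusted p 0.246) and Jun at -0.55 ± 0.14 (adjusted p 0.07).

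The last comparison asks whether a gene's relation to the macrophage score differed with either agent. Over all 24 tumours, the slope of each gene on the score was compared between tumours with and without BMS754807 and between tumours with and without hydroxychloroquine, with the combination counted under both. In limma 0 of 19498 genes (0%) passed for either agent. At an unadjusted p under 0.05 there were 1369 genes for BMS754807 and 1276 for hydroxychloroquine, with smallest adjusted p of 0.322 and 0.129. The difference of Cbr2 between the levels was 3.41 among BMS754807 tumours, 3.61 among hydroxychloroquine tumours, 2.13 among combination tumours and 1.69 among control tumours. For Epcam these values were -3.32, -1.80, -1.85 and -0.93. Only 1 to 4 tumours stand behind each mean, so these values are given with no error.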

How the data were processed

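Total RNA from tumour homogenates was hybridized to Clariom S arrays, 1 per tumour, per the labels' protocols. The deposited values are log2 signals for 22206 probe sets and 24 arrays with 0 missing values, the log base being inferred from their range (1.45 to 19.0). Transcriptome Analysis Console 4.0 is named in the submitters' processing notes, while background correction, normalization and genome build are not given in the sources used here.

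Groups came from the sample titles. Symbols came from the platform's annotation, in which 19572 probe sets have 1 symbol, 0 have several and 2634 have none, and the probe set with the highest mean was kept for each of 19505 genes. Macrophage-rich and macrophage-poor tumours were compared by the linear models of limma (version 3.58.1, R version 4.3.3), with treatment group as covariate, empirical Bayes moderation and two-sided tests. Slopes on the score used all 24 tumours. Adjustment was by Benjamini-Hochberg over the 19498 genes outside the score, and errors of differences are SEs. The procedure was tested on simulated data in which genes varied independently of each other. That test does not cover the choice of tumours by measured genes. The members and the lists were chosen with earlier results of these data known. A list is described by its counts and its median, and a list score is the mean of its members' log2 signals minus their means over 24 tumours. Genes were named by rule. Predicted genes and olfactory, vomeronasal, immunoglobulin and T cell receptor segment genes were passed over, and then the 12 of smallest p that passed in each direction were taken. Added to them were up to 4 of smallest p in each list and a chosen set. That set holds Igf1, Csf1, Ccl2, Trem2, Epcam and others, of which Spp1 had no probe set in the annotation used. Of these, the genes that the results turn on are printed, and all lists have their counts. Promoter windows are those of RefSeq on GRCm38.p6, searched with python 3.11.15.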

Additional observations from a re-analysis of the deposited data

Results flagged for a closer look

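In 84 groups of 6 or 8 tumours, the highest and the lowest tumour were set against the others, and in 9 of them 1 tumour lay farther from its nearest neighbour than Dixon's 95% limit allows for the range of the group. Chance alone flags about 1 in 20 groups. Among macrophage-rich tumours, Adam23 stood at 8.82 in control tumour 5, with the next tumour at 7.81, and Abca9 at 8.92 in BMS754807 tumour 6, with the next at 8.25. Adam23 and Abca9 both passed without these tumours and hydroxychloroquine tumour 4. Marker scores were high in 1 macrophage-rich tumour each for B and plasma cells (1.88 in BMS754807 tumour 5, next 0.087), acinar and islet cells (0.24 in hydroxychloroquine tumour 4, next 0.059) and adipocytes (3.38 in BMS754807 tumour 6, next 0.74). Among macrophage-poor tumours, combination tumour 4 was high for Entpd1 (10.42, next 10.05), for the T cell score (0.40, next -0.18) and for the B and plasma cell score (1.65, next -0.25). Ms4a7 was low in BMS754807 tumour 3, at 8.79, with the next tumour at 9.36. The T and B cell lists had 0 genes past the threshold in limma and 0 at an unadjusted p under 0.05.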

How the results depend on the processing

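Against 217 genes (172 higher, 45 lower), the count was 622 (429 and 193) with no treatment group in the model, 2323 (1211 and 1112) with the score as a continuous covariate over 24 tumours, 286 for the highest 12 against the lowest 12, 143 (122 and 21) with a score without C1q, 158 (114 and 44) after quantile normalization, 37 (31 and 6) with array SD as a covariate, 432 (281 and 151) among genes above the median signal, 216 with probe sets averaged, 257 with array weights, 473 (329 and 144) with a trended prior and 66 (60 and 6) without control tumour 5, BMS754807 tumour 6 and hydroxychloroquine tumour 4. The share of calls that were higher, 79.3%, was 52.1% with the continuous score, 61.8% to 100% when 1 tumour was left out, 65% among brighter genes, 69% with no treatment group in the model and 90.9% without the 3 tumours. With the epithelial, the skeletal muscle or the added fibroblast score as a covariate, 0 genes passed (0 higher, 0 lower), with smallest adjusted p of 0.866, 0.0622 and 0.33. With the replicate number as a block 0 genes also passed (1670 at an unadjusted p under 0.05). Over 36 pairs the correlation of deviations ran from -0.25 to 0.30 (median -0.0075, 9 over 0.1). These values were not set against other pairs, so whether tumours of the same number belong together was not tested. Leaving out 1 tumour gave 16 to 446 genes (16 to 283 higher, 0 to 163 lower). The count moved by over 1.5 times without control tumours 2 (55), 5 (105) or 6 (446), BMS754807 tumours 3 (23), 4 (27), 5 (114) or 6 (45), hydroxychloroquine tumour 3 (16) and combination tumours 2 (115), 3 (132) or 6 (100). Control tumour 2 and hydroxychloroquine tumour 3 are the only macrophage-poor tumours of their groups, and without them those groups add no comparison of the levels. The same holds for combination tumour 1, the only macrophage-rich tumour of its group, without which 173 genes passed. The cause of these changes in count was not tested. For the slopes, 0 genes passed for BMS754807 with array weights, among brighter genes or with the block, and the count for hydroxychloroquine was 1 with the block, Ccdc148 (1.74 ± 0.21, adjusted p 0.0103), seen after its value. The 217 genes kept their sign in these settings except 1 under the epithelial covariate, Esrp1 at 0.21, and among brighter genes 158 of the 217 could be read and kept it. The settings reuse tumours in which the 217 were chosen, so the kept signs are a description and not a test. Genes that had not passed changed sign under the fibroblast covariate (Gas6 -0.20, Hmox1 -0.35, Fabp5 -0.054, Csf1 -0.0037, Il34 0.19, Ccl2 -0.87, Arg1 -1.36, Nos2 -0.90, Cd274 -0.82, Clec10a -0.18), the epithelial covariate (Il34 0.20, Insr -0.098, Arg1 -0.20, Cd274 -0.20) and the replicate block (Cx3cr1 -0.23, Acta1 -0.23, Igf2 -0.42, Igf1r 0.072, Insr -0.16, Mki67 0.28). Cd274 was -0.19 with array SD and without the 3 tumours and -0.081 to 0.27 without 1 tumour, and Mki67 was 0.057 for 12 against 12, 0.056 without C1q, 0.014 with array weights, 0.067 with the muscle score and -0.16 to 0.14 without 1 tumour. The cause of these changes was not tested. The fit among brighter genes tested fewer genes, and the fits that leave tumours out hold fewer tumours.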

Other observations

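Some genes outside the lists passed the same test, and those given here were chosen after their values were seen, so they speak for no group of genes. Of the Ms4a genes, a family of membrane proteins that also holds Ms4a7, 3 more rose in macrophage-rich tumours. Ms4a6b averaged 9.51 log2 in macrophage-rich and 7.66 in macrophage-poor tumours (difference 1.89 ± 0.34, SE, adjusted p 0.0274), Ms4a6c 9.55 and 7.85 (1.79 ± 0.31, 0.0264) and Ms4a4d 10.12 and 8.78 (1.25 ± 0.26, 0.0396). Ms4a6d stood at 1.59 ± 0.38 and did not pass (0.0607). Within the lists Ms4a7 rose, while Ms4a4c (1.499 ± 0.477, 0.14), Ms4a1 (0.831 ± 0.953, 0.727) and Ms4a2 (-0.231 ± 0.322, 0.783) did not pass. Of the C-type lectin receptors of myeloid cells, 4 outside the lists rose, with Clec4a3 at 1.85 ± 0.35 (0.0274), Clec4a1 at 1.53 ± 0.33 (0.0426), Clec4a2 at 1.21 ± 0.27 (0.0485) and Clec12a at 1.84 ± 0.34 (0.0274), while of those within the lists Clec4n (1.27 ± 0.34, 0.0853), Clec10a (0.83 ± 0.32, 0.229) and Mgl2 (0.28 ± 0.13, 0.324) did not pass. Neither did Cd209a (0.80 ± 0.28, 0.171), Cd209b (0.16 ± 0.42, 0.899) or Clec9a (0.34 ± 0.31, 0.646), and Cd209f is given above. The ADP receptor gene P2ry12, best known from microglia, rose by 0.78 ± 0.16 (0.0344). Without control tumour 5, BMS754807 tumour 6 and hydroxychloroquine tumour 4, Ms4a6b (adjusted p 0.0287), Ms4a6c (0.0285), Clec4a1 (0.0453) and P2ry12 (0.0288) passed and the other 4 that had risen did not. Close copies exist within both families, and whether their probes read 1 another's transcripts was not tested. How many members of either family were measured was not counted.

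A further 11 genes were chosen in the same way. Serpina3n, a serine protease inhibitor, averaged 10.89 in macrophage-rich and 8.26 in macrophage-poor tumours (2.79 ± 0.50, adjusted p 0.0273) and Ccn3, a matricellular protein, 9.61 and 6.98 (2.73 ± 0.54, 0.0311). Ccn5 of the same family rose by 2.07 ± 0.36 (0.0249), Prg4, lubricin, by 2.23 ± 0.47 (0.0387), the tenascin gene Tnxb by 2.13 ± 0.38 (0.0268), Ogn, osteoglycin, by 2.00 ± 0.39 (0.03) and the growth factor gene Fgf7 by 1.98 ± 0.42 (0.0387). Lama3, a laminin chain of epithelial basement membranes, averaged 9.83 and 12.68 and fell (-2.76 ± 0.52, 0.0274), as did the receptor phosphatase gene Ptprf (-1.32 ± 0.27, 0.0346), Cgn, cingulin of tight junctions (-0.93 ± 0.21, 0.0491), and Eif2ak3, the stress kinase PERK (-0.46 ± 0.10, 0.0471). Of these 11 genes Tnxb alone passed without the 3 tumours (2.04, adjusted p 0.0285).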
